A study of Mus musculus with 32 samples.

Results

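The erythroid and megakaryocyte transcription factors were followed as a list of 10 genes, named by symbol: Gata1, Klf1, Gfi1b, Tal1, Zfpm1, Nfe2, Lmo2, Ldb1, Fli1 and Bcl11a. Of these, 7 had a row among the 27728 genes of the count table, and Klf1, Zfpm1 and Nfe2 were not analysed here. RNA sequencing was done on mouse blood progenitors sorted as Lin- cKit+ Sca1- cells, in a study of the splicing factor gene U2af1, which was itself not analysed here. The 32 libraries fell into 9 groups. All fetal groups came from liver at E14.5 (embryonic day) and were untreated. They were U2af1(flox/flox) without Cre (the flox control, n = 3), Vav1-Cre/U2af1(wt/flox) (the heterozygous deletion, n = 3), Vav1-Cre/U2af1(flox/flox) (the homozygous deletion, n = 3), Vav1-Cre alone (n = 2) and Vav1-Cre/U2af1(wt/S34F) (n = 4). Vav1-Cre is active across blood cells from before birth, so the deletion is directed to all blood lineages and not only to red cells or megakaryocytes. How complete it was in the sorted cells was not analysed here. The labels put the flox control, both deletion groups and 1 Vav1-Cre library in batch A, and the S34F libraries and the other Vav1-Cre library in batch B. The adult groups came from bone marrow, and all carried Mx1-Cre, rTA and tgU2AF1(WT), a transgene switched on by doxycycline. Of these, 3 groups had U2af1(flox/S34F), received pIpC, which turns on Mx1-Cre, and ate doxycycline chow, with 4 libraries at 1250 ppm, 6 at 2500 ppm and 4 at 10000 ppm. Mx1-Cre responds to interferon and is not limited to blood cells. The adult control had U2af1(wt/wt) and was untreated (n = 3), so it differs from the dosed groups in genotype, pIpC and doxycycline at once.

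GATA1 is the zinc finger factor on which red cells and megakaryocytes both depend, and it takes over many sites from GATA2 as progenitors commit to these lineages. On DNA it works with TAL1, a helix-loop-helix factor, through the bridging proteins LMO2 and LDB1, which bind no DNA of their own and let distant enhancers meet promoters. GFI1B is a repressor needed for both lineages, FLI1 is an ETS family factor that drives megakaryocyte genes and is turned down as red cells form, and BCL11A silences fetal and embryonic globin genes and is also needed for B cells.

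Promoter sequence is shown for members whose levels moved together over the fetal libraries of batch A: Gata1, Gfi1b and Tal1 as a trio, and Ldb1 and Bcl11a as a pair. Over the adult libraries, described below, these genes did not split in this way. Each run is the 250 bases before the RefSeq start of the gene on GRCm38.p6, read on the strand of the gene, and capitals mark a match to a motif on either strand. Searched were the GATA site (AGATAA or TGATAA), the CACCC box bound by KLF factors (CCNCACCC) and the CAGNTG form of the E box, none of which overlaps another of them here. Other forms of the E box were not searched. Positions are chrX:7967911-7968160 (minus strand) for Gata1, chr2:28621983-28622232 (minus strand) for Gfi1b, chr4:115056176-115056425 (plus strand) for Tal1, chr19:46045312-46045561 (minus strand) for Ldb1 and chr11:24080445-24080694 (plus strand) for Bcl11a.
Gata1: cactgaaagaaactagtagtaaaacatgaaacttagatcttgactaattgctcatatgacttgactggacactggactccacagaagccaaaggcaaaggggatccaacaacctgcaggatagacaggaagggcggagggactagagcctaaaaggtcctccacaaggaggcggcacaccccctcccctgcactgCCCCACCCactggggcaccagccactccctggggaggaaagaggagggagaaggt
Gfi1b: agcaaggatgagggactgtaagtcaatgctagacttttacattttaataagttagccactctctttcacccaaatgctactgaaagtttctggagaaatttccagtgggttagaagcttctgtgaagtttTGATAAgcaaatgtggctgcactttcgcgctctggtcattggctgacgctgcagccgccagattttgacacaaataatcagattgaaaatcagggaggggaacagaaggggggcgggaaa
Tal1: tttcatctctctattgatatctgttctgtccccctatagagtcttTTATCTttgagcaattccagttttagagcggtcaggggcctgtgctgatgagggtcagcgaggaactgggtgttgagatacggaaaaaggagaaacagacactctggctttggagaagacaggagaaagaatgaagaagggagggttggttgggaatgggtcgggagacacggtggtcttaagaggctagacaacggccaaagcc
Ldb1: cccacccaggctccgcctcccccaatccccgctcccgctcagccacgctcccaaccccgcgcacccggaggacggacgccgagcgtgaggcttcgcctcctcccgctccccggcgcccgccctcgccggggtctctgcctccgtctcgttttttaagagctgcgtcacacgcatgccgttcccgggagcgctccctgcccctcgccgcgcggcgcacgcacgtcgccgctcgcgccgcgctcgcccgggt
Bcl11a: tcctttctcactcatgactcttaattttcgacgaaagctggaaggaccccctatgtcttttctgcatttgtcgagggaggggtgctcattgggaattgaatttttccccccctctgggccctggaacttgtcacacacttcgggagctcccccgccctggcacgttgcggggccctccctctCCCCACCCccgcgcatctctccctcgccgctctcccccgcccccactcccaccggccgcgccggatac
Gata1 held a CACCC box 55 to 48 bases before its start, and Bcl11a held one 68 to 61 bases before its start. A GATA site lay 120 to 115 bases before the start of Gfi1b, and one lay on the other strand 205 to 200 bases before the start of Tal1. Ldb1 matched none of the motifs in this window, and none of the 5 promoters held the CAGNTG form of the E box. Over all 27025 promoters of the same length, 16.9% held the GATA site, 14.7% the CACCC box and 44.5% this form of the E box. Tal1 has 2 starts and Ldb1 has 3 in the RefSeq table, of which the most upstream was used for each gene. In GENCODE M21, 25 of the Bcl11a bases lie in an exon of that gene. The Gata1 and Bcl11a windows lie inside the longer GENCODE spans of these genes given below. These matches describe letters in the windows, and binding was not measured.

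The members lie on 6 chromosomes of GRCm38, and all are protein-coding. They are Gata1 (ENSMUSG00000031162, chromosome X, 7959260 to 7978071), Gfi1b (ENSMUSG00000026815, chromosome 2, 28609450 to 28621982), Tal1 (ENSMUSG00000028717, chromosome 4, 115056426 to 115071755) and Lmo2 (ENSMUSG00000032698, chromosome 2, 103957986 to 103981878). The others are Ldb1 (ENSMUSG00000025223, chromosome 19, 46031570 to 46045214), Fli1 (ENSMUSG00000016087, chromosome 9, 32422204 to 32542861) and Bcl11a (ENSMUSG00000000861, chromosome 11, 24078056 to 24174123). Exons of Ldb1 overlap those of Pprc1, and exons of Bcl11a overlap those of the antisense gene 4930538E20Rik, in both cases on the other strand. The use of strand in counting is not given in the sources used here, so reads from these overlaps cannot be told apart.

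Libraries held 26588099 to 71251200 counts, and levels are given as CPM (counts per 1e+06 counts of the library) after scaling of library sizes by the trimmed mean of M values. Kit, the marker of the sort, stood at 239 to 571 CPM in fetal and 384 to 776 CPM in adult libraries, and Ly6a, which encodes Sca1, was not analysed here. Fetal libraries differed in liver cell transcripts: the summed level of 9 hepatocyte markers was 109, 629 and 397 CPM in flox control replicates 3, 4 and 5. It was 54.4 to 127 CPM in the heterozygous and 16.9 to 39.6 CPM in the homozygous deletion. The summed level of 11 macrophage markers was 385 to 419 CPM in the flox control and 102 to 150.1 CPM in the homozygous deletion. Among the adult libraries, replicate 3 of the untreated wild type was the only one with no reads of the Y-linked gene Gm29650. Among the fetal libraries, flox control replicate 5, heterozygous deletion replicates 3 and 4, and S34F replicates 2, 3 and 4 had none. The homozygous deletion libraries held 10, 21 and 3 counts of Gm29650, and the Vav1-Cre library of batch B held 18. In these bulk samples, fewer cells of a type and less RNA per cell cannot be told apart. Nothing in the labels says whether the libraries of a group came from separate animals, so p-values measure the spread between these libraries.

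All 7 members were expressed in every library. Per kilobase of exon, Lmo2 had the highest mean level of the 7 in each of the 9 groups, from 106.5 CPM per kilobase in the S34F group to 163 CPM per kilobase at 1250 ppm. Ldb1 and Fli1 came next everywhere, with Ldb1 ahead in the fetal flox control (73.2 against 68.3 CPM per kilobase) and Fli1 ahead in the homozygous deletion (95.9 against 47.5) and in all 4 adult groups. Gata1 stood at 49.3 CPM per kilobase in the flox control and 16.02 in the untreated wild type, and Gfi1b at 44.9 and 10.98. Tal1, Ldb1 and Bcl11a were also lower in the untreated wild type, and Lmo2 and Fli1 were higher. These groups differ in tissue, stage and genotype at once, so the parts of these cannot be told apart. Bcl11a was at the bottom of the order in 8 of the 9 groups, at 19.1 CPM per kilobase in the flox control, and its exon union is also the longest of the 7.

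**Figure D1:**
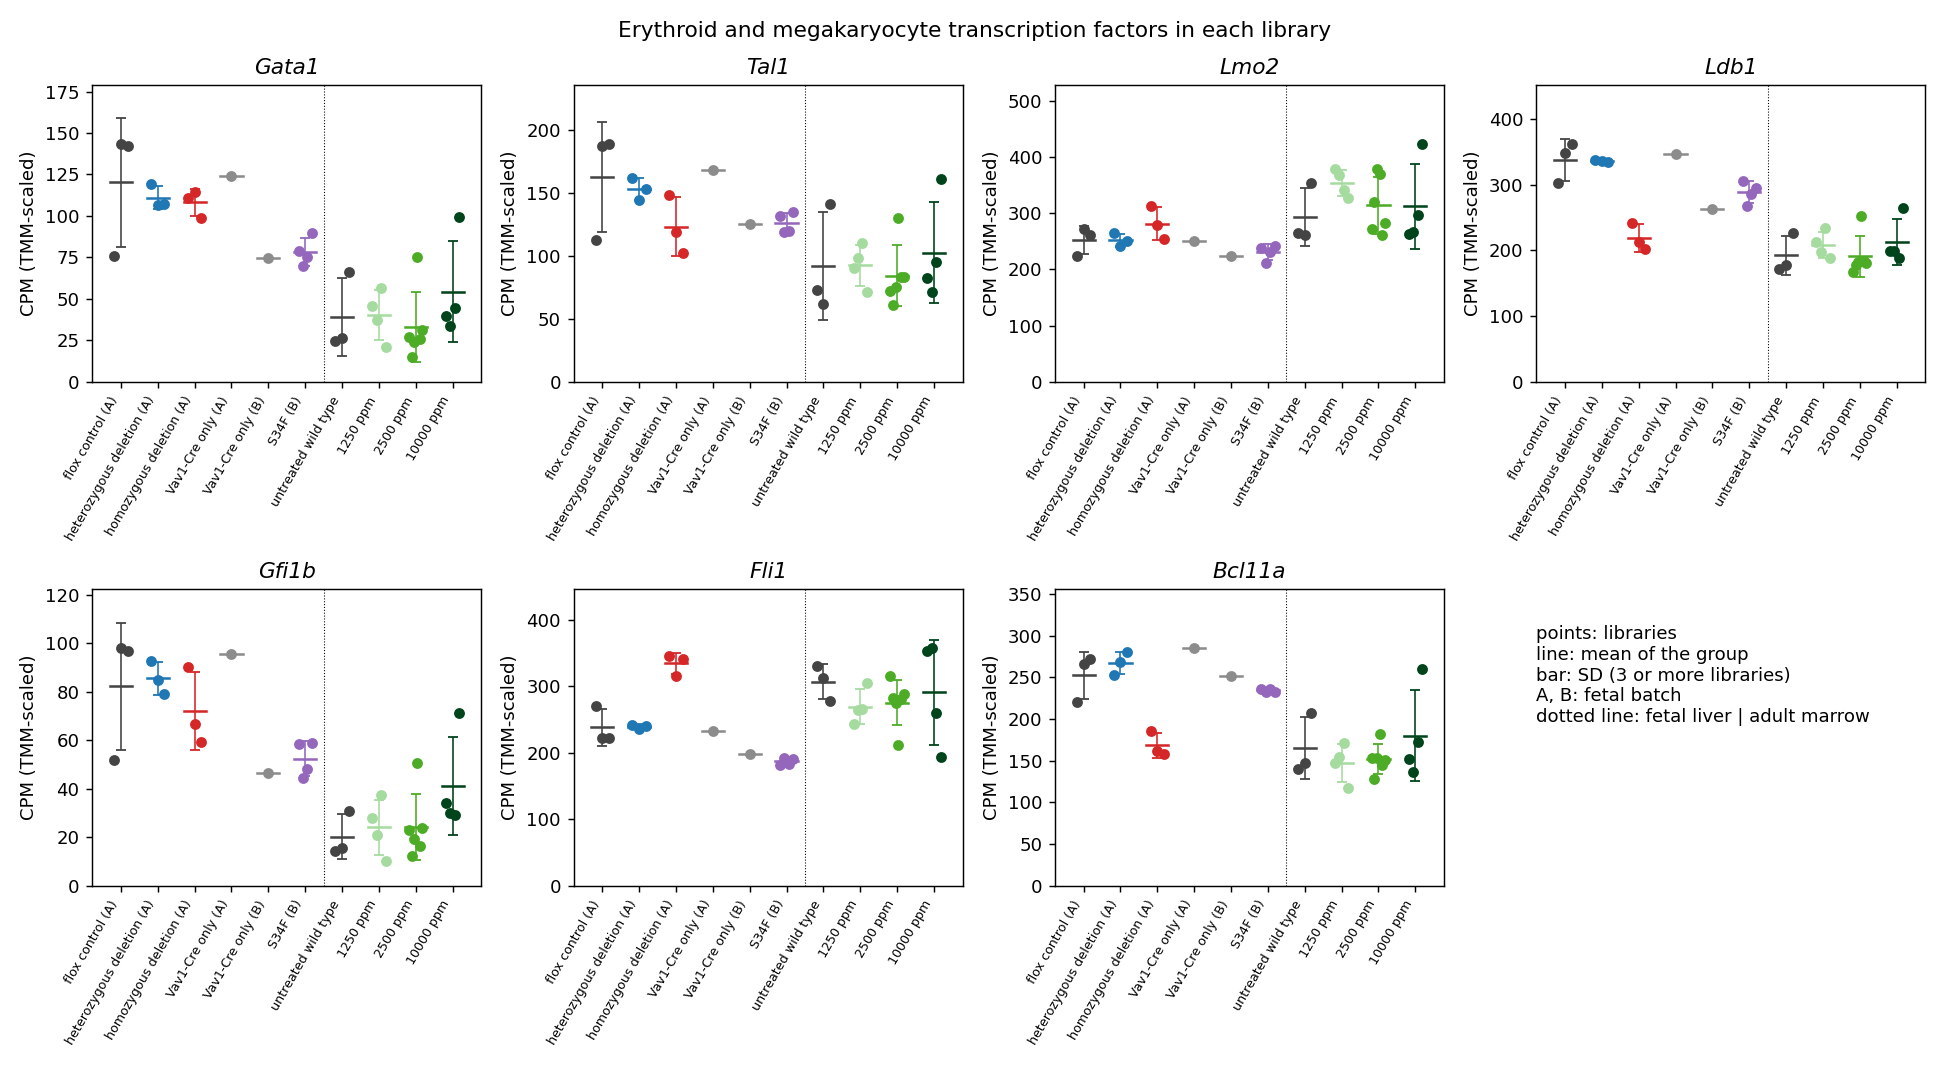
Level of each of the 7 members in every library, in CPM on a linear axis from 0, by group, with the mean as a line and the SD as a bar where a group has at least 3 libraries. Homozygous deletion libraries sit apart from the flox control for Ldb1, Bcl11a and Fli1, and 1 library in each of 3 adult groups stands high for Gata1, Gfi1b and Tal1.

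Loss of both U2af1 alleles was compared with the flox control. Ldb1 and Bcl11a fell, Fli1 rose, and Gata1, Gfi1b, Tal1 and Lmo2 did not pass the test. Thus 3 of the 7 members were called, at an adjusted p under 0.05 in edgeR's quasi-likelihood test, against 41.0% of all 12678 genes tested. By direction, 18.5% of all genes were called higher and 22.4% lower, beside 1 and 2 members. A share of 42.9% of the members is near that background and is no result about the list. The median log2 fold change was -0.22 over the 7 members and -0.02 over all genes.

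Ldb1, the dimerising cofactor, had 302, 349 and 361 CPM in the flox control and 242, 213 and 201 CPM in the homozygous deletion. The groups did not overlap. The log2 fold change was -0.66 ± 0.08 (SE), a 1.58-fold fall, with an adjusted p of 0.000168. Bcl11a, the globin repressor, had 220.2, 265 and 271 CPM in the flox control and 186, 162 and 158 CPM in the homozygous deletion, again with no overlap. Its log2 fold change was -0.61 ± 0.09 (SE), a 1.53-fold fall, with an adjusted p of 0.000505. Both genes thus fell by a similar amount, and their highest level in the deletion stayed under their lowest in the control.

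Fli1, the ETS factor of megakaryocytes, moved the other way. Its level was 269.8, 222 and 222 CPM in the flox control and 346, 316 and 342 CPM in the homozygous deletion. All 3 deletion libraries lay above all 3 controls, and the log2 fold change was 0.46 ± 0.08 (SE), a 1.38-fold rise, with an adjusted p of 0.00109. The Vav1-Cre library of the same batch, which carries Cre without a floxed allele, had 346 CPM of Ldb1, 285 CPM of Bcl11a and 233 CPM of Fli1, on the side of the flox control for all 3 genes.

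Gata1 had 75.5, 143 and 142 CPM in the flox control and 111, 115 and 98.9 CPM in the homozygous deletion. Replicate 3 of the flox control was the low library there, and the deletion lay between it and the other 2 controls. Its log2 fold change was -0.18 ± 0.19 (SE), with an adjusted p of 0.479. Gfi1b, the repressor, showed the same layout, with 51.9, 97.9 and 96.6 CPM in the flox control and 90.1, 66.8 and 59.4 CPM in the deletion, and a log2 fold change of -0.22 ± 0.22 (SE; adjusted p = 0.452). For Tal1 the values were 112, 187 and 189 CPM against 148, 119 and 102 CPM, with a log2 fold change of -0.44 ± 0.18 (SE; adjusted p = 0.0784). For all 3 genes replicate 3 was the lowest control, and the deletion lay below the other 2 controls. Lmo2, the bridging protein, had 224, 273 and 261 CPM against 313, 279 and 254 CPM, which overlapped, and its log2 fold change was 0.13 ± 0.09 (SE; adjusted p = 0.275).

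Without replicate 3 of the flox control, Gata1 (-0.42 ± 0.07 on the log2 scale, adjusted p = 0.000554), Gfi1b (-0.45 ± 0.13, adjusted p = 0.0174) and Tal1 (-0.63 ± 0.11, adjusted p = 0.00107) passed as well, so that 6 of the 7 members were called. Ldb1 (-0.72), Bcl11a (-0.69) and Fli1 (0.57) kept their calls in that fit. The share of all genes called in that fit is not given here, so the 6 of 7 is no result about the list. Tal1 also passed without replicate 2 of the homozygous deletion (-0.58, adjusted p = 0.0394), with DESeq2 (adjusted p = 0.0405) and with no filter on low counts (adjusted p = 0.0011). Replicate 3 of the flox control also had the fewest liver cell transcripts of its group, at 109 CPM against 629 and 397 CPM. Its erythroid progenitor markers summed to 449 CPM against 902 and 882 CPM in the other controls, and its granulocyte-monocyte progenitor markers to 21920 CPM against 15160 and 15070 CPM. The part of these differences in the result was not tested.

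Because hepatocyte markers differed between the groups without overlap, the hepatocyte score of each library was also entered as a covariate. In that fit Ldb1 (-0.32, adjusted p = 0.161), Bcl11a (-0.32, adjusted p = 0.289) and Fli1 (0.20, adjusted p = 0.409) kept their direction and lost the call. Gfi1b turned from -0.22 to 1.05 and passed (adjusted p = 0.0275), Lmo2 passed at 0.58 (adjusted p = 0.0106), and Gata1 (0.83, adjusted p = 0.108) and Tal1 (0.62, adjusted p = 0.0875) changed sign without passing. Over all genes, 1241 passed with this covariate. Score and genotype move together across these libraries.

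**Figure D2:**
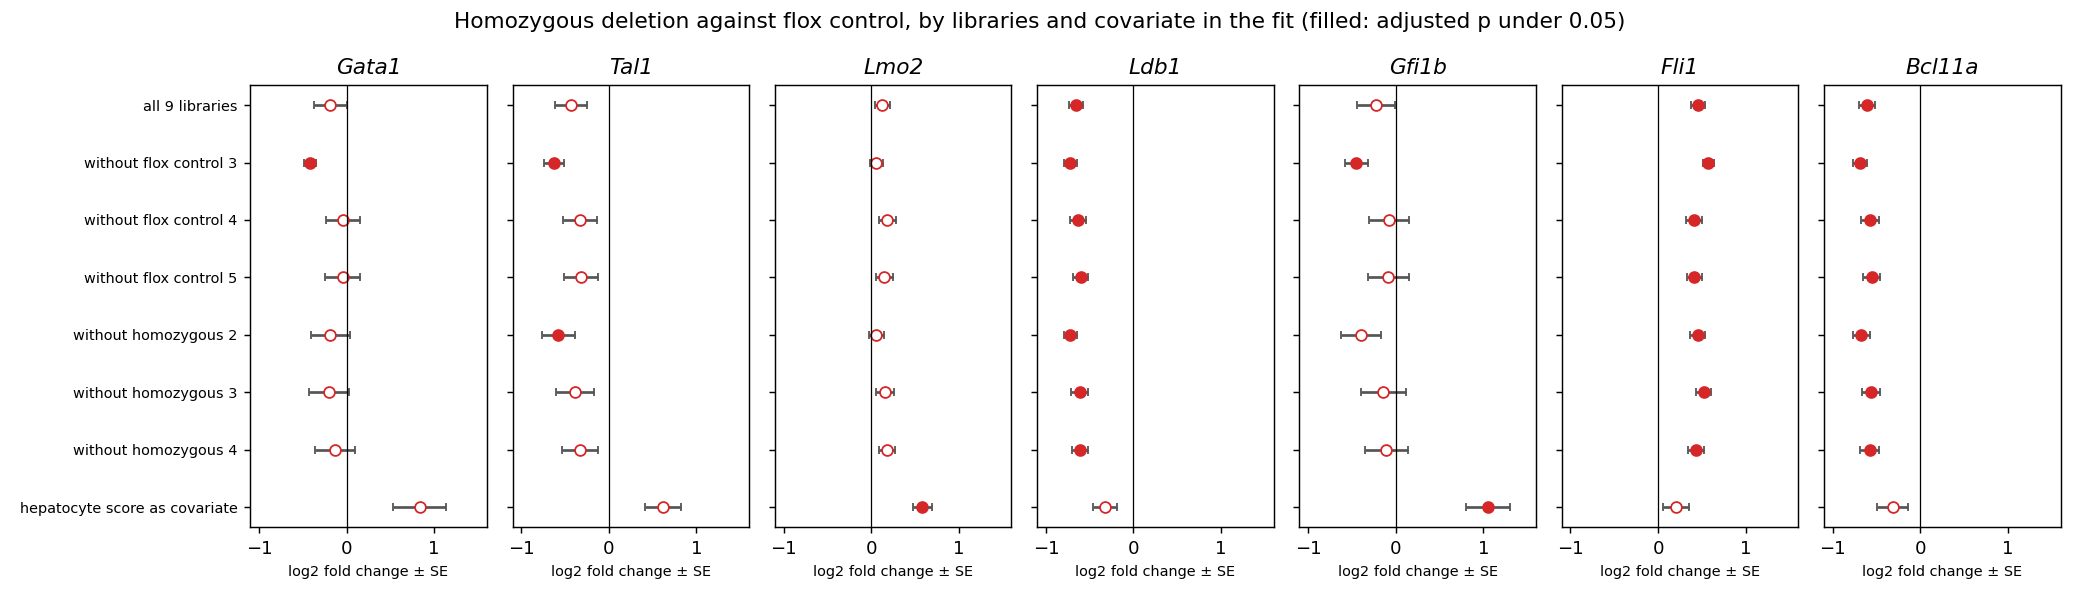
Log2 fold change of the homozygous deletion against the flox control for each member, with bars of 1 SE, with all 9 libraries in the fit, without each library of the compared groups in turn, and with the hepatocyte score as a covariate. Filled points passed at an adjusted p under 0.05. Ldb1, Fli1 and Bcl11a are filled whichever library is left out and open with the covariate, while Gata1, Gfi1b and Tal1 are filled without flox control replicate 3 and Gfi1b lies to the right of 0 with the covariate.

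The heterozygous deletion was set against the same flox control to measure the loss of 1 allele. In edgeR's test, 0 of the 7 members passed, and 0 had an unadjusted p under 0.05, against a background of 0.0316% (4 of 12678 genes). Levels of Ldb1 were 338, 336 and 335 CPM, of Bcl11a 253, 268 and 280.3 CPM, and of Fli1 242, 235 and 240.4 CPM, all overlapping the flox control. Gata1, at 119, 106.5 and 107 CPM, lay between the low control library and the other 2. A range of 2 SE on either side put the log2 fold change of Ldb1 between -0.15 and 0.17, that of Fli1 between -0.13 and 0.18, and that of Gata1 between -0.48 and 0.29. DESeq2 also called 0 of the 7. Without flox control replicate 3, Gata1 passed at -0.34 ± 0.07 on the log2 scale (adjusted p = 0.0296).

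The homozygous was then compared with the heterozygous deletion, in which Vav1-Cre is present on both sides and the hepatocyte marker sums lie closer together, though still without overlap. The same 3 members passed: Ldb1 at -0.67 ± 0.08 (SE, log2; adjusted p = 0.000134), Bcl11a at -0.72 ± 0.09 (adjusted p = 0.000192) and Fli1 at 0.43 ± 0.08 (adjusted p = 0.00143). The background was 42.3% of the 12678 genes, 19.8% higher and 22.4% lower, so the share of members was again that of the transcriptome. These 3 calls held with the hepatocyte score as a covariate, at -0.51 for Ldb1 (adjusted p = 0.0016), -0.58 for Bcl11a (adjusted p = 0.00323) and 0.31 for Fli1 (adjusted p = 0.0276), and Lmo2 was added at 0.33 (adjusted p = 0.00483). Gata1 stood at -0.09 ± 0.19 (adjusted p = 0.739), Gfi1b at -0.30 ± 0.22 (adjusted p = 0.3) and Tal1 at -0.37 ± 0.18 (adjusted p = 0.13) without the covariate. Of these, Tal1 passed with only the compared groups in the fit (adjusted p = 0.0233) and with no filter on low counts (adjusted p = 0.00659). Its homozygous libraries are those set against the flox control above.

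**Figure D3:**
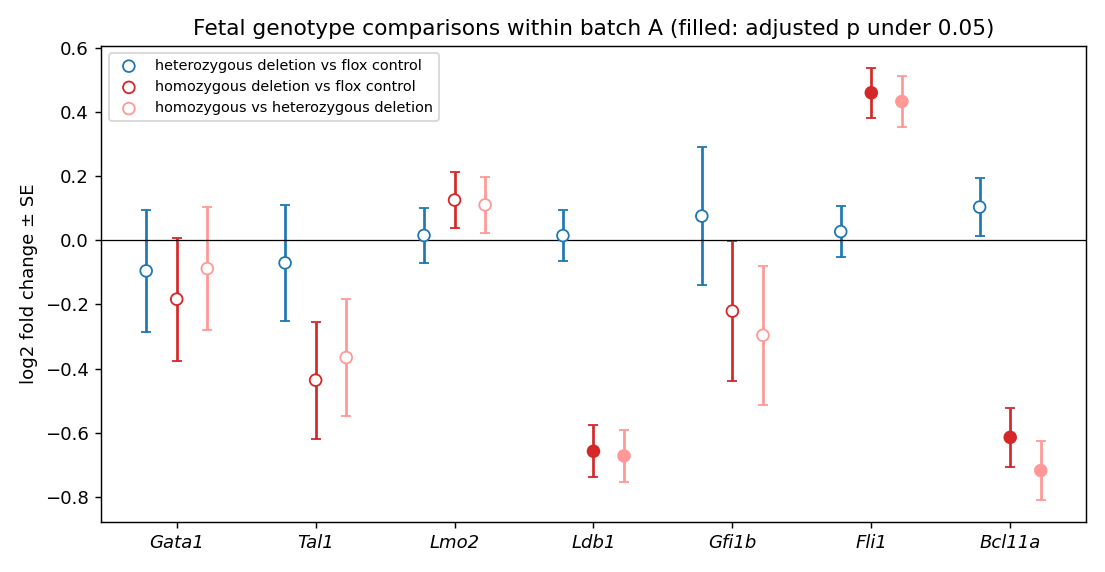
Log2 fold change of each member in the 3 fetal genotype comparisons of batch A, with bars of 1 SE and filled points at an adjusted p under 0.05. Filled points are Ldb1 and Bcl11a below 0 and Fli1 above 0, from -0.72 to 0.46, in both comparisons of the homozygous deletion, and all 7 points of the heterozygous deletion are open.

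Kit, the receptor used in the sort, was at 484 to 571 CPM in the flox control and 239 to 324 CPM in the homozygous deletion, so the deletion libraries also differed in a sort marker. Mast cell or basophil markers summed to 394 to 545 CPM and 643 to 914 CPM in these groups. B cell markers summed to 58.8 to 119.5 CPM and 24.4 to 26.6 CPM, and Bcl11a is expressed by B cells as well. The part of these marker differences in the result was not tested.

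The partner list held co-factors, complex subunits and related regulators of which 20 of 26 had a row. With both alleles deleted, 9 of the 20 passed against the flox control, 3 higher and 6 lower, with a median log2 fold change of 0.01. Beside the 41.0% of all genes called, this share is near the background and is no result about the partners. Gata2, which precedes GATA1 at shared sites, had 279.7, 278 and 261 CPM in the flox control, 337, 335 and 352 CPM in the heterozygous deletion and 509, 527.3 and 525.9 CPM in the homozygous deletion. The 3 groups did not overlap, and the log2 fold change of the homozygous deletion was 0.90 ± 0.05 (SE; adjusted p = 2.09e-06), while that of the heterozygous deletion was 0.34 ± 0.05 and did not pass (adjusted p = 0.108). E2f2, a cell cycle factor of late red cell precursors, rose by 0.45 ± 0.15 (adjusted p = 0.0315). Tcf3, which encodes an E protein that pairs with TAL1, fell from 386 to 269 CPM (-0.55 ± 0.06, adjusted p = 6.03e-05), and Ssbp2, which binds and protects LDB1, fell from 68.4 to 47.8 CPM (-0.55 ± 0.06, adjusted p = 5.94e-05). The count of partners was 5 without replicate 4 or without replicate 5 of the flox control and 4 with the hepatocyte score as a covariate. Against the heterozygous deletion, 9 of 20 passed, 4 higher and 5 lower, again near the 42.3% over all genes, and these 4 genes passed there too.

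Genes downstream of the factors were read from lists of erythroid targets (22 of 28 with a row), megakaryocyte targets (17 of 22) and embryonic globins (3 of 4). With both alleles deleted, 15 of 22 erythroid targets fell and 0 rose relative to the flox control, where 22.4% of all genes fell and 18.5% rose, with a median log2 fold change of -1.20 against -0.02 over all genes. Aqp1, the water channel of the red cell membrane, went from 52.1 ± 17.4 to 6.209 ± 1.598 CPM (SD, n = 3), a log2 fold change of -3.09 ± 0.26 (SE; adjusted p = 2.13e-05). Ermap, a red cell adhesion protein, went from 186 ± 92.2 to 42.9 ± 3.88 CPM (-2.15 ± 0.34, adjusted p = 0.000725), and the wide control spread again came from replicate 3. The erythropoietin receptor gene Epor had 22.5, 59.1 and 63.4 CPM in the flox control and 25.9, 25.1 and 21.6 CPM in the deletion. The deletion libraries lay around the low control library, replicate 3. The count was 9 without flox control replicate 4, without flox control replicate 5 or without homozygous deletion replicate 3, and 1 with the hepatocyte score as a covariate. Among the embryonic globins, whose genes BCL11A represses, Hba-x and Hbb-bh1 could be tested and 0 passed, with 1.28 and 1.39 CPM of Hba-x in the flox control and the homozygous deletion. The median log2 fold change of these 2 globins was -0.493, against -0.02 over all genes.

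Of the 17 megakaryocyte targets, 14 fell and 1 rose in the same comparison, again beside 22.4% and 18.5% of all genes, with a median log2 fold change of -1.096. Ppbp, a platelet chemokine gene, went from 8.001 to 0.506 CPM (-3.96 ± 0.79, adjusted p = 0.00254), and Vwf, the gene of von Willebrand factor, from 25.96 to 4.06 CPM (-2.73 ± 0.34, adjusted p = 0.000184). Megakaryocyte markers, a list that shares genes with these targets, summed to 182 to 260.4 CPM in the flox control and 77.3 to 119.8 CPM in the homozygous deletion. Cd9, a tetraspanin gene of platelets and other cells, rose from 42.1 to 64.0 CPM (0.57 ± 0.09, adjusted p = 0.000504). The count of 15 fell to 0 with the hepatocyte score as a covariate. Against the heterozygous deletion 9 of the 17 passed (1 higher, 8 lower) and 7 of the 22 erythroid targets passed, all lower, where 42.3% of all genes were called (22.4% lower). That erythroid count was 4 without homozygous deletion replicate 4, and with the hepatocyte score as a covariate 5 megakaryocyte and 3 erythroid targets passed. With the heterozygous deletion against the flox control, 0 genes of these lists passed. Without heterozygous replicate 3, 7 erythroid and 1 megakaryocyte target passed there, and without flox control replicate 3, 3 erythroid and 4 megakaryocyte targets did. The shares of all genes called in these fits are not given here, so these counts are no result about the lists. Members of these lists also serve as markers of erythroid progenitors and megakaryocytes, so a change in a gene per cell and a change in the share of such cells cannot be told apart.

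The opposing factors are regulators of granulocytes, monocytes and lymphocytes, of which 7 of 10 had a row. With both alleles deleted, 6 of 7 passed against the flox control, 3 higher and 3 lower, where 41.0% of all genes were called. Gfi1, the paralog of Gfi1b that acts in granulocyte and lymphoid progenitors, rose from 104 ± 30.7 to 268 ± 29.1 CPM (1.34 ± 0.17, adjusted p = 0.000195). Cebpa, the granulocyte factor, rose from 202 to 302 CPM (0.54 ± 0.12, adjusted p = 0.00432). Irf4, a lymphoid factor, fell from 3.39 to 0.452 CPM (-2.88 ± 0.67, adjusted p = 0.0062), and Pax5, the B cell factor, stood at 19.5 CPM in the flox control and 0.0471 CPM in the deletion, too few counts there for a fold. With the hepatocyte score as a covariate 2 of the 7 passed, both lower. The same counts (3 higher, 3 lower) were found against the heterozygous deletion, where 42.3% of all genes were called.

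**Figure D4:**
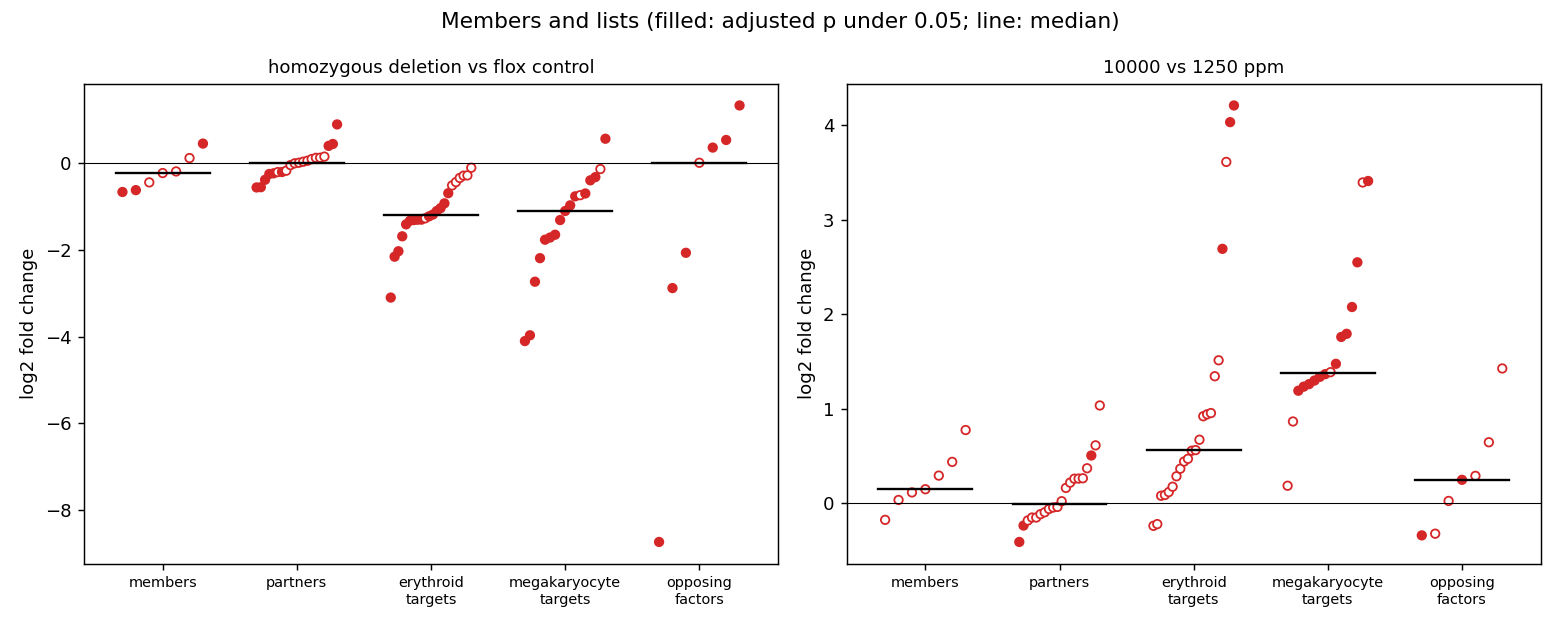
Log2 fold change of every tested member and list gene for the homozygous deletion over the flox control and at 10000 against 1250 ppm, with the median of each list as a line and filled points at an adjusted p under 0.05. Medians of the erythroid and megakaryocyte targets lie at -1.199 and -1.096 in the fetal comparison and at 0.56 and 1.38 in the adult one, beside members at -0.22 and 0.15. The lowest point is Pax5, whose fitted value rests on almost no counts in the deletion.

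For S34F, the control from batch B was 1 Vav1-Cre library, and within the batch no test is possible. None of the 7 members differed 2-fold in all 4 S34F libraries, against a background of 1.02% (121 of 11823 genes). Gata1 had 78.9, 69.8, 75.0 and 89.4 CPM with S34F and 74.6 CPM in the Vav1-Cre library. Ldb1 was higher than that library in 4 of 4, at 306, 267, 285 and 295 CPM against 263 CPM. Bcl11a, at 236, 233, 236 and 233 CPM against 252 CPM, and Fli1, at 182, 192, 182 and 191 CPM against 198 CPM, were lower in 4 of 4. The log2 ratios were small, from 0.04 to 0.25 for Ldb1, from -0.11 to -0.07 for Bcl11a and from -0.10 to -0.03 for Fli1. In an edgeR fit of all 15 fetal libraries with batch as a covariate, which lends the spread of the other groups to the single control, 0 of the 7 members passed, with adjusted p from 0.647 for Ldb1 (0.15 ± 0.11, SE, on the log2 scale) to 0.973 for Tal1. The background in that fit was 0.372% (52 of 13973 genes), and 1591 genes and 0 members had an unadjusted p under 0.05. The Vav1-Cre libraries themselves stood at 124 CPM of Gata1 in batch A and 74.6 CPM in batch B.

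In adult marrow, libraries of the same group differed widely, and the groups overlapped for every member in each comparison. Gata1 had 24.4, 26.4 and 66.4 CPM in the untreated wild type, 45.6, 37.1, 56.6 and 21.1 CPM at 1250 ppm, 14.8 to 75.0 CPM with a median of 26.5 CPM at 2500 ppm, and 39.5, 33.6, 44.4 and 99.5 CPM at 10000 ppm. Replicate 3 of the wild type, replicate 4 at 2500 ppm and replicate 4 at 10000 ppm were the high libraries of their groups, and all 4 groups overlapped. Gfi1b had 14.1, 15.4 and 30.7 CPM in the wild type, 27.8, 20.8, 37.2 and 10.3 CPM at 1250 ppm, 12.1 to 50.7 CPM with a median of 20.99 CPM at 2500 ppm, and 33.9, 29.9, 29.1 and 71.3 CPM at 10000 ppm. Tal1 ran from 61.2 to 161 CPM over the 17 libraries, with the highest value in each of these 3 groups in the same 3 libraries. Ldb1, from 167 to 265 CPM, and Bcl11a, from 117 to 259.6 CPM, were also highest there within each of the 3 groups.

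Fli1 went the other way within these groups. It was at 278 CPM in replicate 3 of the wild type against 331 and 313 CPM in the others, at 211 CPM in replicate 4 of 2500 ppm against 274 to 315 CPM, and at 193 CPM in replicate 4 of 10000 ppm against 259 to 358 CPM. Lmo2 was at 261 to 423 CPM over the adult libraries, with its highest level in replicate 4 at 10000 ppm. The 3 libraries also held the highest sums of erythroid progenitor markers, at 1588, 1420 and 1830 CPM for wild type replicate 3, 2500 ppm replicate 4 and 10000 ppm replicate 4, against 337 to 1098 CPM in the other 14. The granulocyte-monocyte progenitor markers of 10000 ppm replicate 4 summed to 16780 CPM, against 28720 to 44610 CPM in the other 16 libraries. Erythroid genes outside the list followed, as Car1 stood at 630, 523 and 794 CPM in these 3 libraries and at 71.4 to 371 CPM in the other 14. What part a different makeup of the sorted cells had in this was not tested.

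**Figure D5:**
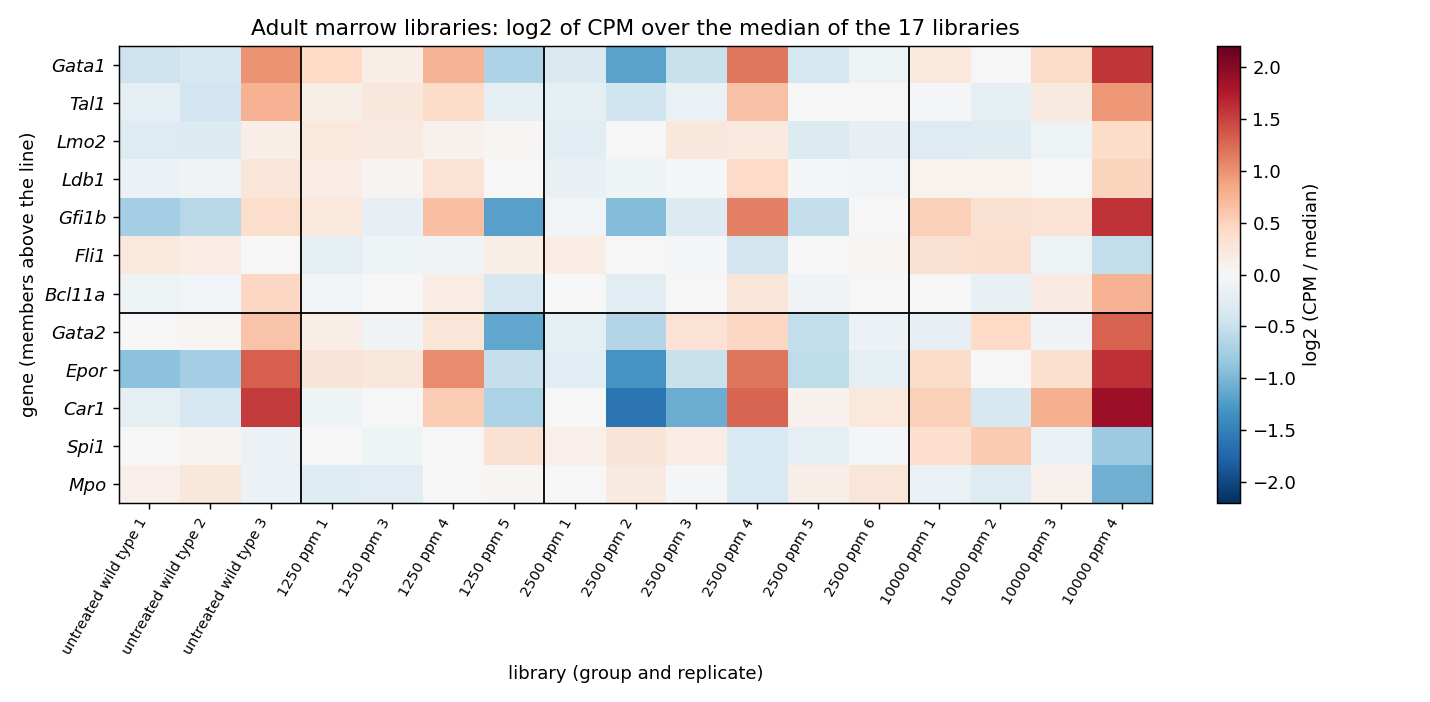
Log2 of the CPM over the median of the 17 adult libraries, for the 7 members (above the line) and for Gata2, Epor, Car1, Spi1 and Mpo, with libraries in columns by group. Untreated wild type 3, 2500 ppm 4 and 10000 ppm 4 are red for Gata1, Gfi1b, Tal1, Epor and Car1, where Car1 reaches 630, 523 and 794 CPM, and no dose group is red or blue throughout for Gata1.

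Each dose was compared with the untreated wild type in turn, and 0 of the 7 members passed in any of the 3 comparisons with edgeR's quasi-likelihood test. The background was 1.27% of 13338 genes at 10000 ppm, 0.487% at 2500 ppm and 11.4% at 1250 ppm. The lowest adjusted p among the members was 0.228 at 10000 ppm, for Gfi1b, whose log2 fold change of 1.04 ± 0.49 (SE) became 0.65 ± 0.48 without replicate 4 of that group and 1.49 ± 0.57 without replicate 3 of the wild type. It was 0.679 at 2500 ppm and 0.291 at 1250 ppm. DESeq2 also called 0 of the 7 in each of the 3 comparisons, and 0 members had an unadjusted p under 0.05 in edgeR. The intervals were wide: 2 SE on either side left the log2 fold change of Gata1 at 10000 ppm between -0.56 and 1.52, while that of Ldb1 lay between -0.14 and 0.45.

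Between the doses, 0 of the 7 passed at 10000 against 1250 ppm (background 18.1%), at 10000 against 2500 ppm (background 0%) or at 2500 against 1250 ppm (background 1.91%). The same held for the slope on log2 dose over the 14 dosed libraries, where the background was 10.7% of 12849 genes. For 10000 against 2500 ppm, where no gene passed with edgeR, 1445 genes and 0 members had an unadjusted p under 0.05, and DESeq2 called 50 genes. Gfi1b had the largest slope of the members, 0.29 ± 0.14 (SE, log2 per doubling of dose; adjusted p = 0.176), and it was 0.14 ± 0.14 without replicate 4 at 10000 ppm. Gata1 had a slope of 0.19 ± 0.14 (adjusted p = 0.407), which was 0.01 ± 0.14 without that library. At 10000 against 1250 ppm, the median log2 fold change was 0.15 over the 7 members and 0.02 over all genes.

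Gene lists were read from the same fits. At 10000 against 1250 ppm, 12 of 16 megakaryocyte targets rose and 0 fell, where 7.53% of all genes rose and 10.6% fell, with a median log2 fold change of 1.38. Itga2b, the gene of the platelet integrin CD41 and a target of GATA1, was at 110.2 ± 55.2 CPM (SD, n = 4) against 39.7 ± 11.2 CPM (n = 4), a log2 fold change of 1.48 ± 0.32 (SE; adjusted p = 0.008). The count was 6 without replicate 4 or without replicate 5 at 1250 ppm and with only the compared groups in the fit. Against the untreated wild type, 0 of the 16 passed at 10000 ppm, with a median log2 fold change of 0.856. At 1250 ppm against the wild type 1 passed, lower, with a median of -0.471. All genes called were 1.27% and 11.4% in these comparisons. On the dose trend 13 of 16 rose, where 5.39% of all genes rose and 5.32% fell, and the count was 1 without replicate 2 at 10000 ppm, 4 without replicate 5, 7 without replicate 1 and 8 without replicate 3 or replicate 4 at 1250 ppm. In the partner list, 3 of 20 passed at 10000 against 1250 ppm, 1 higher and 2 lower, where 18.1% of all genes were called. This share is near the background and is no result about the partners. The higher gene was Erg, an ETS relative of Fli1, which rose from 89.4 to 127 CPM (0.51 ± 0.13, adjusted p = 0.0152). The partner count was 1 without replicate 4 and without replicate 5 at 1250 ppm, and in the latter fit Erg did not pass, and it was 5 without replicate 3 or without replicate 4 at 10000 ppm.

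In the same comparison 3 of 22 erythroid targets rose, namely Hbb-bt, Alas2 and Epb42, and 0 fell, where 7.53% of all genes rose and 10.6% fell. Epb42, which encodes a protein of the red cell skeleton, was at 4.50 ± 4.77 CPM against 0.689 ± 0.416 CPM (2.69 ± 0.75, adjusted p = 0.0218). That count was 5 without replicate 3 or without replicate 4 at 10000 ppm, 1 without replicate 3 at 1250 ppm, and 0 without replicate 2 at 10000 ppm or without replicate 4 or replicate 5 at 1250 ppm. On the trend 5 of 22 rose, where 5.39% of all genes rose. That number was 0 without replicate 2 at 10000 ppm or replicate 5 at 1250 ppm, 2 without replicate 3 or replicate 4 at 1250 ppm, and 3 without replicate 1 at 10000 ppm. Against the untreated wild type, 2 of 22 erythroid targets rose at 10000 ppm, where 1.27% of all genes were called in either direction. Hbb-bt was at 113 ± 208 CPM against 0.715 ± 0.248 CPM. Alas2 was at 31.5 ± 58.2 CPM against 0.207 ± 0.126 CPM, and for both genes the SD at 10000 ppm was above the mean. That count was 4 without replicate 3 at 10000 ppm, and 0 without replicate 1 or replicate 2 at 10000 ppm or without any 1 of the wild type libraries.

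Genes were ranked by the Pearson correlation of their log2 CPM with that of Gata1 and of Bcl11a, as a description over libraries that share cells, depth and groups. Over the 17 adult libraries, the 5 genes nearest to Gata1 were Sept8 (r = 0.985), Spire1 (0.977), Epor (0.974), Ermap (0.974) and Aqp9 (0.972), among 9443 genes compared. Among those nearest to Bcl11a were Lpin2 (r = 0.959), Acss1, Fam126a and Mfsd2b (0.942). Among the members, r with Gata1 was 0.934 for Tal1, 0.924 for Gfi1b, 0.902 for Ldb1, 0.877 for Bcl11a, 0.532 for Lmo2 and -0.65 for Fli1. Ldb1 and Bcl11a had r = 0.754 with each other over these adult libraries. Over the 10 fetal libraries of batch A, Ldb1 and Bcl11a ran together (r = 0.982) and opposite to Fli1 (-0.954 and -0.943), and Gata1 ran with Gfi1b (0.861) and Tal1 (0.812). There the nearest genes to Gata1 were Podxl (0.973), Ryk, Hk1, Vangl1 and Nipa1 (0.95), and those nearest to Bcl11a were Arhgap35 (0.994), Trib2, Pogk, Arhgef25 and Abl1 (0.985), among 9410 genes.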

How the data were processed

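The submitters sequenced total RNA after ribosomal RNA depletion (KAPA RNA Hyper with RiboErase, NovaSeq) and, per the labels and the submitters' processing notes, aligned the reads with HISAT2 to GRCm38 (mm10). The design text gives HISAT2 2.1.0 and the notes 2.0.86, and the counter, annotation release and use of strand are not given in the sources used here. The deposited values are raw counts per gene, not normalized by the authors. Of 27728 gene IDs, 27668 had a symbol in GENCODE M21. Genes were filtered with filterByExpr and tested with edgeR 4.0.16 (quasi-likelihood, trimmed mean of M values, R 4.3.3), with Benjamini-Hochberg adjustment over all genes tested and a threshold of 0.05. The 9 fetal libraries of the 3 batch A genotype groups shared 1 fit, as did the 17 adult libraries, and the dose trend used the 14 dosed libraries. Scripts were tested on simulated data. Alternatives were DESeq2 1.42.0, other scalings and filters, covariates, a replicate block and leaving out each library. The counting of list genes under each alternative and the choice of members and lists were made with earlier results of these data known. Named from each list were up to 2 genes with the largest rise and 2 with the largest fall among those called, where groups did not overlap and the higher group averaged 50 counts or more. Epor, Car1 and the globins Hba-x and Hbb-bh1 were also named, after their values were seen. Reads carry no molecular identifiers. All 45 pairs of libraries within a group differed by more than sampling noise. Some genes that these rules select are not reported here.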

Additional observations from a re-analysis of the deposited data

Results flagged for a closer look

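In groups of 4 to 10 libraries, 28 pairs of member and group were searched for a library that stood apart from the rest of its group by Dixon's test at the 95% level, and 7 did, where chance gives about 1 in 20. All 7 came from 2 libraries, replicate 4 at 10000 ppm and replicate 4 at 2500 ppm, and all were the highest of their group. At 10000 ppm, replicate 4 had 99.5 CPM of Gata1 where the nearest library had 44.4 CPM, 71.3 CPM of Gfi1b where the nearest had 33.9 CPM, and 265.0 CPM of Ldb1 where the nearest had 198.7 CPM. At 2500 ppm, replicate 4 had 74.9 CPM of Gata1 where the nearest had 31.2 CPM, 50.7 CPM of Gfi1b where the nearest had 23.6 CPM, 130.3 CPM of Tal1 where the nearest had 83.6 CPM, and 252.8 CPM of Ldb1 where the nearest had 184.2 CPM. Both libraries also held the highest erythroid progenitor marker sums of their groups, and the part of this in the levels was not tested. Groups of 3, which include the wild type with its high replicate 3, were not searched.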

How the results depend on the processing

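Ldb1, Fli1 and Bcl11a kept direction under every alternative in both comparisons of the homozygous deletion. They lost the call against the flox control with the hepatocyte score as a covariate, and a required log2 fold change of at least 1 left 0 members in each of these comparisons. Gfi1b reversed to 1.05 with the hepatocyte score. Members called ran from 3 to 6 against the flox control and from 0 to 1 for the heterozygous deletion when 1 library was left out, and 0 adult members passed under any alternative. Of 1225 member values, 85 changed sign without passing in either setting. Requiring a log2 fold change of at least 1, calls over all genes were 1533 (homozygous against flox), 1 (heterozygous against flox), 1439 (homozygous against heterozygous), 455 (1250 ppm against wild type), 654 (10000 against 1250 ppm), 29 (2500 against 1250 ppm) and 87 (trend). With the hepatocyte score they were 1241 for the homozygous and 0 for the heterozygous deletion against flox. DESeq2 called 119 (heterozygous against flox), 1055, 567 and 2519 (10000, 2500 and 1250 ppm against wild type), 50 (10000 against 2500 ppm), 1106 (2500 against 1250 ppm) and 2227 (trend). With no filter the counts were 230 (heterozygous against flox), 702 (1250 ppm against wild type), 1533 (10000 against 1250 ppm) and 0 (2500 against 1250 ppm). With a mean count of at least 50 they were 87 and 7 for 10000 and 2500 ppm against wild type. With only the compared groups in the fit they were 0 (heterozygous against flox), 1, 4 and 3165 (10000, 2500 and 1250 ppm against wild type) and 1052 (10000 against 1250 ppm). Y-linked reads as a covariate gave 0 and 1 (10000 and 2500 ppm against wild type) and 463 (2500 against 1250 ppm), for which RLE factors gave 153 and leaving out genes over 1% of counts gave 157. The rank of the dose gave 2069 for the trend. The pooled fit with batch as a covariate called 52 genes for S34F. The cause of these changes was not tested. Without 1 library, counts ran from 3994 to 5589 (homozygous against flox), 0 to 269 (heterozygous against flox), 4048 to 5179 (homozygous against heterozygous), 0 to 816, 0 to 163 and 68 to 1445 (10000, 2500 and 1250 ppm against wild type), 1118 to 2809 (10000 against 1250 ppm), 0 to 20 (10000 against 2500 ppm), 0 to 926 (2500 against 1250 ppm), 87 to 2240 (trend) and 137 to 166 (S34F). Between same-numbered libraries, r ran from -0.244 to 0.064 over 7 fetal pairs and from -0.222 to 0.505 over 19 adult pairs. The highest was that of replicate 4 at 10000 ppm with replicate 4 at 2500 ppm, the libraries flagged above. With the replicate block, counts were 0 (heterozygous against flox), 121 and 438 (2500 and 1250 ppm against wild type), 1184 (10000 against 1250 ppm), 0 (2500 against 1250 ppm) and 33 (trend), and 8 of 22 erythroid targets passed in the homozygous deletion against flox. The alternatives that count list genes were added after the data were seen.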

Other observations

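The T or NK cell markers, which belong to none of the lists above, summed to 56.0 to 87.9 CPM in the flox control, 66.0 to 80.3 CPM in the heterozygous deletion and 147 to 199.5 CPM in the homozygous deletion. The homozygous deletion thus lay above both other groups for this sum and below them for the sum of the B cell markers. The mean log2 CPM over the T or NK cell markers overlapped. It was -1.451 to -0.863 in the homozygous deletion, -1.409 to -0.822 in the flox control and -1.036 to -0.808 in the heterozygous deletion. The higher sum is therefore no rise of the markers in general. Between 2 and 3 of the 7 T or NK cell markers had no count in a library of the homozygous deletion, and between 1 and 2 in one of the flox control. The part of these markers in the member levels was not tested.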
